A study of Mus musculus with 9 samples.

Results

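The progerin allele G609G and the lamin C only allele LCS of mouse Lmna were set against each other in fat. The comparison rests on 6 of the 9 arrays of the series, chosen by their titles: 3 from mice homozygous for G609G and 3 from mice homozygous for LCS. The other 3, from wild-type (WT) mice, give a reference level. Perigonadal fat was taken at 4 months of age and its total RNA put on exon arrays, with no treatment named; strain and sex are not in the labels used here. The submitters' design text speaks of biological replicates, and no label ties an array to an animal. By the labels both alleles are alleles of the gene itself, with no promoter or Cre that limits them to fat cells, and controls carry neither.

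Lmna encodes lamin A and lamin C, intermediate filament proteins that line the inner face of the nucleus. Lamin A is made as prelamin A, which is farnesylated and then trimmed by the protease Zmpste24. The G609G allele is known to activate a cryptic splice site, so that an internally deleted, permanently farnesylated lamin A (progerin) is made, while LCS yields lamin C without lamin A. White fat stores triglyceride and secretes hormones such as leptin, and in males the perigonadal depot lies against the epididymis and testis. Mice that make progerin are known to lose fat.

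Gene values are the deposited log2 intensities of a gene's probe sets, summarised per array. The median over all probe sets was 6.57 ± 0.06 in G609G, 7.23 ± 0.04 in LCS and 7.21 ± 0.06 in WT (SD, n = 3 each). As deposited, the median log2 fold of G609G minus LCS over the 11341 genes tested was -0.48. Log2 folds below are therefore given relative to the median gene, with a constant difference of -0.50 (deposited minus relative), while levels per array are the deposited log2 values. A positive fold means higher in G609G. The correlation r between arrays was 0.972 to 0.981 within G609G, 0.989 to 0.990 within LCS and 0.902 to 0.912 between them.

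Most genes differed between the mutants. Relative to the median gene, 4186 genes were higher in G609G (36.9% of those tested) and 4181 lower (36.9%) at a limma adjusted p under 0.05. On the deposited scale 1067 genes rose (9.41%) and 7994 fell (70.5%). Each count for a gene list below is to be read beside these shares, on its own scale. Both scalings called 1067 genes higher (9.41%) and 4181 lower (36.9%), and 1035 genes (9.13%) were called in opposite directions. The mutants' arrays were fully separated for 75.3% of genes relative to the median gene and for 81.3% as deposited, so separation alone is the common case here. With no filter on the mean (15123 genes) the relative folds of the same genes shifted with the centring, with a median shift of -0.17. Called changes of at least 4-fold were rarer, with 188 genes higher (1.66%) and 164 lower (1.45%), and those of at least 16-fold numbered 60 (0.529%) and 26 (0.229%). Of the 60, 30 belong to a list of skeletal muscle genes, 3 to a list of epididymal genes and 1 to a list of testis genes. The other 26 are on none of these lists, which do not hold every gene of their tissues. Of the 26 genes at least 16-fold lower, 12 belong to the epididymal list and 14 to none of them. Among the genes tested, 74 passed the filter on the mean through the G609G arrays alone, 21 of them on the muscle list. Another 14 passed through the LCS arrays alone. Such genes had to differ, so the filter helped to set these counts. On the relative scale WT lay nearer to LCS than to G609G for 75.5% of the genes at least 4-fold higher and for 94.5% of those at least 4-fold lower, against 71.5% of all genes tested.

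**Figure D1:**
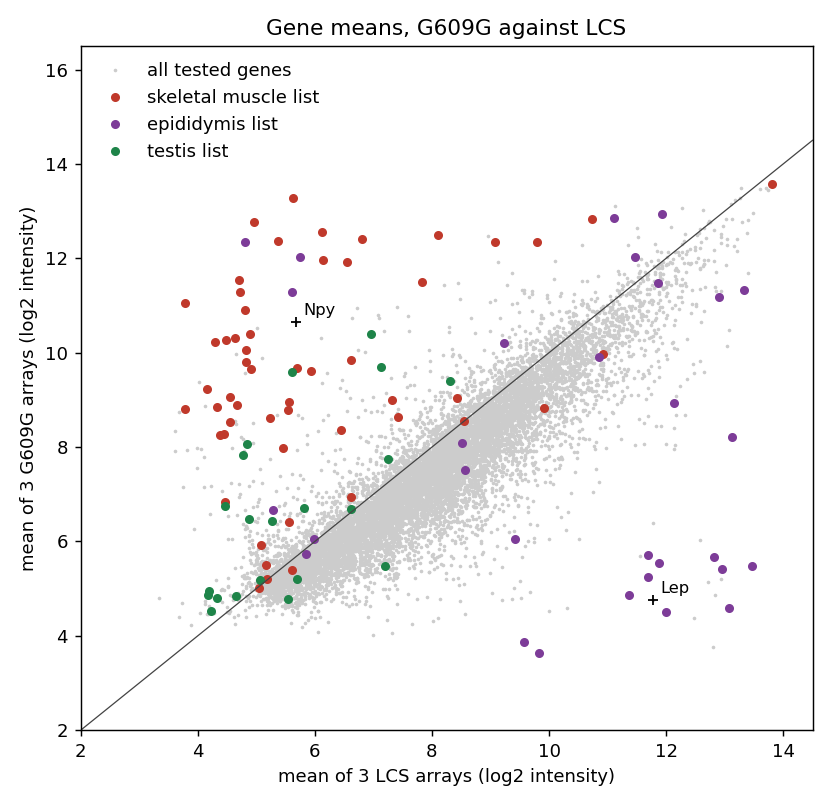
Mean deposited log2 intensity of each tested gene (grey) on the 3 LCS arrays (x axis) and the 3 G609G arrays (y axis), with the line of equality. Most genes lie just under the line, as the median deposited log2 fold of -0.48 says. Many skeletal muscle genes (red) lie at the upper left, and epididymal genes (purple) are spread from the lower right, around Lep, to the upper left, near Npy.

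At Lmna itself, a pair of probe sets was low on the LCS arrays. Probe set 5039122 read 4.12, 4.96 and 4.87 in LCS, 8.27, 7.77 and 8.27 in G609G and 9.12, 8.69 and 9.24 in WT. Probe set 4817758 read 4.24, 4.55 and 4.37 in LCS, 6.69, 7.29 and 7.03 in G609G and 6.57, 6.44 and 6.39 in WT. In both, every LCS array lay far below every other array, and the difference of G609G minus LCS stood above that of the rest of the gene (limma diffSplice adjusted p of 6.13e-34 and 9.78e-26). Probe set 4479405 was instead reduced in either mutant: its mean was 5.97 ± 0.27 for G609G, 5.91 ± 0.20 for LCS and 8.48 ± 0.21 for WT (SD, n = 3). Between the mutants it did not pass against the rest of the gene (adjusted p = 0.265). Of 16 Lmna probe sets tested, 3 were higher and 8 lower than the rest of the gene, where 18.2% of all 158136 probe sets were called in either direction. The rest of the gene includes the pair that is low in LCS, so the lower calls are not independent of it. Where in the gene these probe sets lie was not analysed here.

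Over the whole gene, Lmna read 7.14, 7.32 and 7.22 in G609G, 7.96, 7.74 and 8.06 in LCS and 7.83 ± 0.07 in WT (SD, n = 3). As deposited, every G609G array lay under every LCS array. Relative to the median gene the log2 fold was -0.19 (SE 0.08), which did not pass (limma adjusted p = 0.0524), and as deposited it was -0.69 (adjusted p = 7.51e-06). The way of summarising decided the sign: a plain mean of the probe sets in place of median polish gave 0.31 (adjusted p = 0.00149). With no filter on low values the log2 fold was -0.37 (adjusted p = 0.00222). Without G609G replicate 2 it was -0.25 (adjusted p = 0.0271), and without LCS replicate 2 it was -0.27 (adjusted p = 0.0134).

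**Figure D2:**
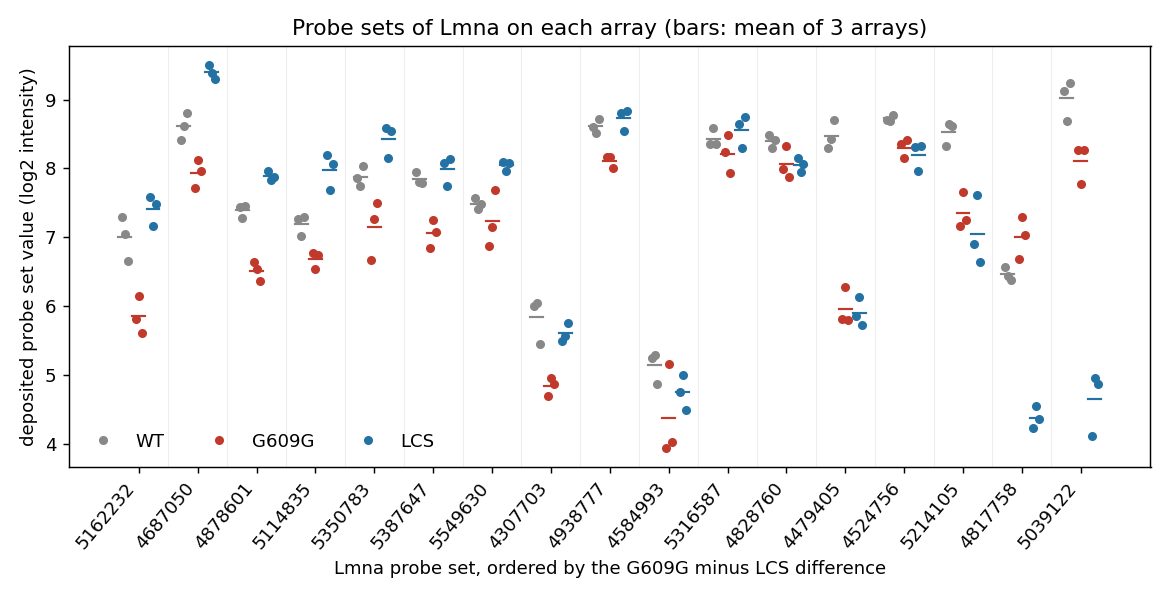
Deposited log2 intensity of the 17 Lmna probe sets (x axis, ordered by G609G minus LCS) on each array, with bars for the mean of 3 arrays. The last 2 probe sets on the right drop to between 4.12 and 4.96 on the LCS arrays, while 4479405 is low in both mutants.

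Among partners of the lamins, Zmpste24 was lower in G609G (log2 fold -0.37, SE 0.07, adjusted p = 0.000557), as was Fntb, the beta subunit of the farnesyltransferase (-1.04, SE 0.10). Sun2 (Unc84b on the array), which ties the lamina to the cytoskeleton, was higher (0.99, SE 0.04). Emd, which encodes the inner membrane protein emerin, was higher relative to the median gene (0.67, SE 0.07), with a deposited fold of 0.17 that did not pass (adjusted p = 0.075). Over the 19 tested genes of the nuclear envelope and lamin processing list, 9 were higher and 6 lower, with a median of 0.01. As deposited 1 was higher and 11 lower. Over all genes 36.9% went each way, and 9.41% were higher and 70.5% lower as deposited. With no filter on the mean 7 of 20 were higher and 9 lower.

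Transcripts of skeletal muscle were high in G609G fat and low in LCS and WT. With no filter on the mean, 62 of the 66 measured genes of the muscle list were higher and 2 lower (Tpm3 and Amy1, named after their values were seen), with a median log2 fold of 3.60, where 35.6% of all 15123 genes were higher and 36.4% lower. Of the 66, 54 passed the filter, and 21 of these passed through the G609G arrays alone, with LCS and WT means under it, so that they had to differ. Among the 54 the counts were 51 higher and 2 lower (as deposited 47 and 3), which the filter thus helped to set. Atp2a1, the calcium pump of fast muscle fibres, read 12.75, 12.74 and 12.84 in G609G, 5.07, 4.96 and 4.83 in LCS and 4.75 in WT (log2 fold 8.32, SE 0.08). Tnnt3, the fast troponin T, read 13.22, 13.29 and 13.30 in G609G, 5.61, 5.59 and 5.70 in LCS and 5.54 in WT. Myh4, the fastest myosin heavy chain, read 11.10, 11.12 and 10.96 in G609G, 3.80, 3.77 and 3.80 in LCS and 3.69 in WT. The G609G arrays were alike in all of these, and WT was as low as LCS. Levels in LCS under 5.09, the filter that a gene's mean over the 9 arrays had to pass, are near the arrays' background, which limits the size of such folds. Ckm, the muscle creatine kinase, and Ryr1, the calcium release channel, were also higher (6.93, SE 0.12 and 5.74, SE 0.09). Atp2a1, Myh4 and Ryr1 are among the 21 genes that passed the filter through G609G alone, so their difference is no independent support.

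By role, and with no filter on the mean, contractile genes had a median log2 fold of 4.30 (24 of 25 higher), calcium handling genes 3.64 (14 of 14), metabolic genes 3.99 (10 of 11) and regulators 1.33 (14 of 16). The mean level of the measured list genes was 8.85, 8.91 and 8.95 on the G609G arrays and 5.73 to 5.76 on the LCS arrays. In such bulk tissue a difference in the number of cells of a type and a difference in RNA per cell cannot be told apart.

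Epididymal transcripts split into opposite groups. Of 30 tested genes of the list, 18 were lower in G609G and 11 higher, with a median of -1.37, beside 36.9% of all genes each way. As deposited 20 were lower and 8 higher, with a median of -1.87, beside 70.5% and 9.41% of all genes. On the relative scale WT lay nearer to LCS for 17 of the 18 lower genes, and nearer to G609G for 10 of the 11 higher genes. For most genes of the list, then, the mutant with the low value was the one further from WT. The nearer mutant did not always match WT. WT lay above both mutants for 5 of the 11 higher genes (45.5%) and 3 of the 18 lower (16.7%), against 23.1% of all genes tested.

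Lipocalins, small secreted carriers of lipophilic molecules, were among the genes low in G609G. Lcn8 read 4.51, 4.77 and 4.50 in G609G, 13.12, 13.04 and 13.07 in LCS and 12.78, 12.75 and 12.69 in WT (log2 fold -7.98, SE 0.07, adjusted p = 1.83e-15). Lcn10 and Lcn9 were lower by log2 folds of -5.84 and -7.04. Lcn5, the next gene after Lcn8 in the RefSeq order, was below WT in both mutants, with means of 11.48 in G609G, 11.86 in LCS and 13.38 in WT. Its small fold changed sign with the scaling (0.12 relative to the median gene, adjusted p = 0.00572, and -0.38 as deposited). Gpx5, an epididymal glutathione peroxidase, was lower at -7.49 (SE 0.21) and Cst11, a cystatin, at -6.65 (SE 0.05). Outside the list, the adjacent genes Ly6g5c and Ly6g5b were lower at -7.59 (SE 0.09) and -7.24 (SE 0.12), and Slc38a5, an amino acid transporter, at -6.04 (SE 0.08).

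The opposite group was low in LCS. Spint4, a Kunitz-type protease inhibitor, read 12.30, 12.36 and 12.39 in G609G, 5.18, 4.61 and 4.61 in LCS and 12.82, 12.81 and 12.80 in WT (log2 fold 8.05, SE 0.11, adjusted p = 3.78e-14). Its neighbour Wfdc13 was higher in G609G by 6.79 (SE 0.10). Outside the list, Wfdc16, nearby in the same cluster of whey acidic protein genes, was higher by 4.70 (SE 0.04). Npy, which encodes neuropeptide Y, is also outside the list. It read 10.62, 10.67 and 10.63 in G609G, 5.74, 5.54 and 5.77 in LCS and 10.18 ± 0.06 in WT (SD, n = 3). G609G was close to WT in all of these.

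The split ran between neighbours. Defb20 and Defb22 encode beta-defensins, small antimicrobial peptides, and follow each other in the RefSeq gene order; this pair was singled out after its values were seen. Defb20 read 7.94, 8.04 and 8.64 in G609G, 13.02, 13.15 and 13.18 in LCS and 12.47 ± 0.04 in WT (log2 fold -4.41, SE 0.12). Defb22 read 11.28, 11.17 and 11.43 in G609G, 5.90, 5.73 and 5.19 in LCS and 11.11 ± 0.01 in WT (log2 fold 6.19, SE 0.13). Each was thus high in the mutant where the other was low, and both were high in WT. The other tested beta-defensins nearby, named after their values were seen, were below WT in both mutants. Defb21 had deposited means of 7.76 in G609G, 8.47 in LCS and 11.03 in WT. For Defb29 they were 7.39, 7.22 and 9.53, and for Defb19 4.39, 4.82 and 7.26. The 250 bases before the starts of Defb20 and Defb22 are shown because these neighbours moved in opposite directions. They are RefSeq sequences of GRCm38.p6, with Defb20 at chr2:152476813-152477062 on the plus strand and Defb22 at chr2:152490139-152490388 on the minus strand, each written 5′ to 3′ with no letters marked.
Defb20: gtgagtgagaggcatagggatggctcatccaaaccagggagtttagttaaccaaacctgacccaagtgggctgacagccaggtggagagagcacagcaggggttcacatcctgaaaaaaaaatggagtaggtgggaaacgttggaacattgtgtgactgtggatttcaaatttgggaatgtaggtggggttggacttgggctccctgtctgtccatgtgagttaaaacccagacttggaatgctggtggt
Defb22: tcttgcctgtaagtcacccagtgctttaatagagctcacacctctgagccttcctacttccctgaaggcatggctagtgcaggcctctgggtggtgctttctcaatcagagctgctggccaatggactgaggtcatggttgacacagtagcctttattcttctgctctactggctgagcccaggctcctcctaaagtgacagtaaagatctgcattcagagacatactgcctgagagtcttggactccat
The steroid receptor half-site TGTTCT, searched on both strands as TGTTCT and AGAACA, has no match in either window, and 16.1% of 32851 promoter windows of the same length hold it.

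Transcripts of spermatids and Leydig cells were higher in G609G than in LCS, and most were higher still in WT. Of 21 tested genes of the testis list, 18 were higher in G609G and 2 lower (Spaca1 and Dkkl1, named after their values were seen), with a median of 1.24. Over all genes 36.9% went each way. As deposited 15 were higher and 3 lower, with a median of 0.74, beside 9.41% and 70.5% of all genes. On the relative scale WT lay above both mutants for 16 of the 18 (88.9%), against 23.1% of all genes tested. Odf1, an outer dense fibre protein of the sperm tail, read 9.56, 9.44 and 9.80 in G609G, 5.59, 5.65 and 5.61 in LCS and 10.34 ± 0.06 in WT (log2 fold 4.48, SE 0.07). Prm2, a sperm protamine, was higher by 3.07 (SE 0.05), Smcp, a sperm mitochondrial protein, by 3.95 (SE 0.06), and Cyp17a1, an enzyme of testicular androgen synthesis, by 3.71 (SE 0.10). The Y-linked genes Eif2s3y and Kdm5d were read at 6.82 or more on each of the 9 arrays.

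**Figure D3:**
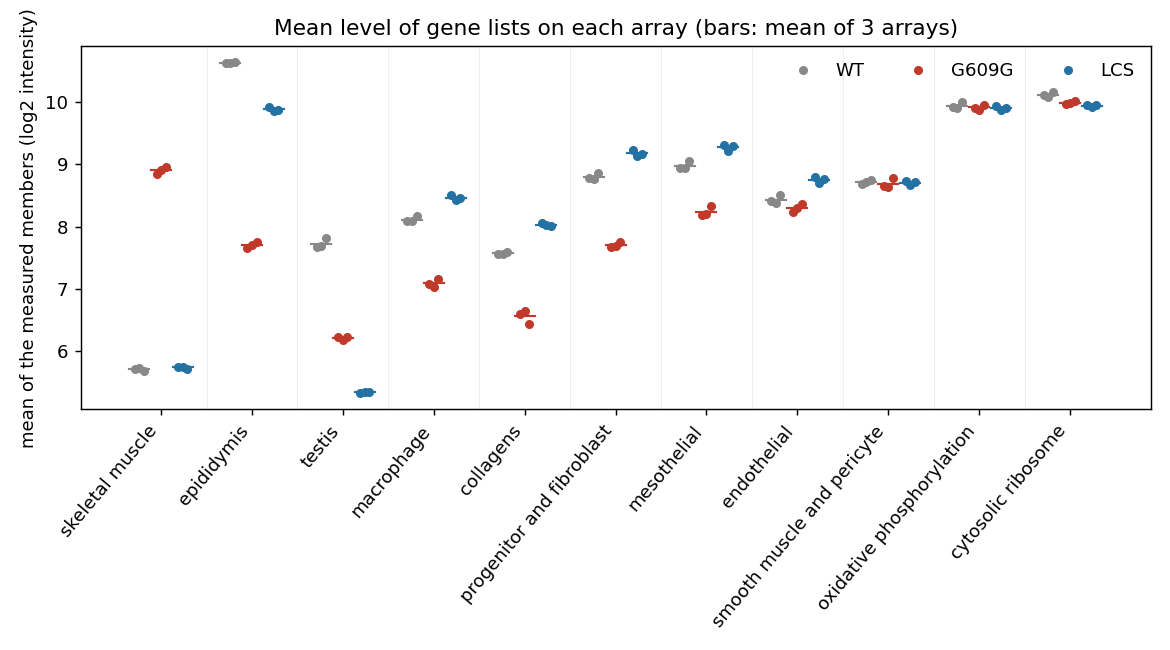
Mean deposited log2 intensity of the measured genes of 11 lists (x axis) on each array, with bars for the mean of 3 arrays. Muscle genes are high on the G609G arrays, at 8.85 to 8.95, and epididymal genes low, at 7.65 to 7.76 against 9.86 to 9.91 in LCS. Testis genes are lowest in LCS, at 5.33 to 5.36, while respiratory chain genes lie at nearly the same deposited level in every group.

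The levels of these 3 lists moved with the genotype: the muscle list averaged 8.90 ± 0.05 in G609G and 5.74 ± 0.01 in LCS, the epididymal list 7.70 ± 0.05 and 9.88 ± 0.03, and the testis list 6.22 ± 0.03 and 5.35 ± 0.01 (SD, n = 3). The epididymal mean joins genes that went opposite ways, so it does not measure an amount of tissue. The part of these transcripts in the results that follow was not tested.

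Defining genes of the white fat cell were read at high levels in both mutants. Adipoq, which encodes adiponectin, read 12.54, 12.59 and 12.51 in G609G and 13.40, 13.37 and 13.39 in LCS. Pparg, the master regulator of fat cell formation, read 10.58, 10.52 and 10.66 in G609G and 10.56, 10.60 and 10.60 in LCS. The Adipoq levels were separate and the Pparg levels overlapped. Relative to the median gene Adipoq was lower (-0.34, SE 0.05, adjusted p = 2.68e-05) and Pparg higher (0.50, SE 0.04, adjusted p = 2.61e-07), while the deposited log2 fold of Pparg was 0.00 (adjusted p = 0.99).

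Leptin, the satiety hormone of fat, showed the largest fold of the adipokines. Lep read 4.70, 4.73 and 4.85 in G609G, 11.75, 11.78 and 11.80 in LCS and 10.70, 10.58 and 10.62 in WT. No array of one group came near another group, and LCS lay above WT. The log2 fold was -6.52 (SE 0.05, adjusted p = 6.31e-16), or 91.7-fold lower, and -7.02 as deposited. The G609G level lies under the filter of 5.09, so background limits the size of this fold. Sfrp5, a secreted Wnt antagonist of fat, was lower at -5.36 (SE 0.14), and its mean in LCS was likewise above WT (11.56 and 10.04).

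The 250 bases before the start of Lep are shown because of that fold. They lie at chr6:29059971-29060220 on the plus strand of GRCm38.p6 (RefSeq), with the palindrome TTGCGCAA, a match to the C/EBP consensus that reads alike on both strands, in capitals.
Lep: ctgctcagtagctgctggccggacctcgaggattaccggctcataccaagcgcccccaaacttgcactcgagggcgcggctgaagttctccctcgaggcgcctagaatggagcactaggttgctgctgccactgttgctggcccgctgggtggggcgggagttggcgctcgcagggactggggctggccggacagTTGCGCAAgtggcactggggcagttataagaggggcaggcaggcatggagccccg
The palindrome starts 55 bases before the gene's start, and 54 of 32851 promoter windows of this length hold it (0.164%). The match describes letters, and binding was not measured.

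Other adipokines moved in both directions. Of 13 tested, 4 were higher and 7 lower, with a median of -0.33, beside 36.9% of all genes each way. As deposited 2 were higher and 9 lower (median -0.83), beside 9.41% and 70.5%. Rbp4, the retinol carrier, was lower at -1.45 (SE 0.03) and Nrg4, a neuregulin secreted by fat, at -1.95 (SE 0.11). Nampt, the enzyme of NAD salvage that is also secreted as visfatin, read 11.24, 11.38 and 11.35 in G609G, 9.64, 9.51 and 9.55 in LCS and 9.64 in WT (log2 fold 2.26, SE 0.04). Agt, angiotensinogen, was higher by 1.64 (SE 0.03). Cfd, which encodes the complement factor adipsin, was higher relative to the median gene (0.54), with a deposited fold of 0.04 (adjusted p = 0.0674).

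Transcription factors of fat cells differed in both directions. Of 20 tested, 14 were higher and 5 lower, with a median of 0.37, beside 36.9% of all genes each way. With no filter on the mean 10 were higher and 6 lower. As deposited 6 were higher and 9 lower, with a median of -0.13, beside 9.41% and 70.5% of all genes. Klf15, which drives amino acid and lipid use in fasting, read 10.03, 9.99 and 10.20 in G609G, 8.46, 8.18 and 8.39 in LCS and 8.42 in WT (log2 fold 2.23, SE 0.06). Foxo1, which insulin restrains, was higher by 0.97 (SE 0.04). Cebpa, the partner of Pparg in fat cell maturation, read 8.85, 8.72 and 8.64 in G609G, 10.04, 10.09 and 10.14 in LCS and 9.92 in WT (-0.86, SE 0.06, adjusted p = 1.12e-07). Srebf1, which drives lipid synthesis, was lower at -0.68 (SE 0.04) and Ebf1, an early adipogenic factor, at -1.19 (SE 0.04). All 5 of these named factors kept their direction as deposited.

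**Figure D4:**
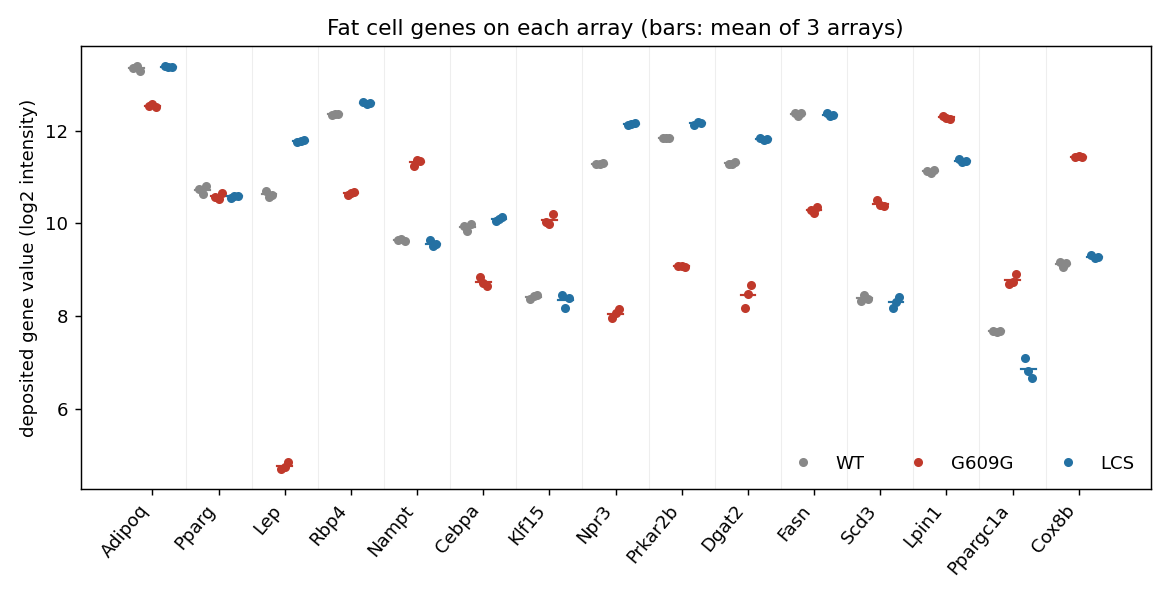
Deposited log2 intensity of 15 genes of fat cells (x axis) on each array, with bars for the mean of 3 arrays. Lep falls to 4.70 to 4.85 on the G609G arrays, Pparg lies together in all groups, and Nampt, Klf15, Scd3 and Cox8b are above LCS and WT in G609G.

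Lipolysis, the release of fatty acids from stored triglyceride, had 11 of 17 genes lower and 3 higher, with a median of -0.64, beside 36.9% of all genes in each direction. As deposited 16 were lower and 1 higher (median -1.14), where 70.5% and 9.41% of all genes were. Of 5 receptors, 4 were lower, with a median of -2.95. Npr3, the clearance receptor of natriuretic peptides, read 7.95, 8.05 and 8.15 in G609G, 12.13, 12.15 and 12.17 in LCS and 11.29 in WT (log2 fold -3.60, SE 0.04, adjusted p = 4.04e-15), while Npr1, their signalling receptor, was higher by 1.34 (SE 0.05). Hcar1 (Gpr81 on the array), the lactate receptor that restrains lipolysis, was lower at -3.61 (SE 0.15), with G609G near background. Prkar2b, a regulatory subunit of protein kinase A, read 9.09, 9.08 and 9.05 in G609G and 12.13, 12.20 and 12.18 in LCS (-2.60, SE 0.04).

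Among the lipases, Lipe, the hormone-sensitive lipase, was lower at -0.64 (SE 0.03) and Mgll, the monoglyceride lipase, at -1.30 (SE 0.04). Pnpla2, the first lipase of the cascade, took opposite signs under the scalings, at 0.28 relative to the median gene and -0.22 as deposited, both called. Aqp7, a glycerol channel, was lower at -1.40 (SE 0.03). At the droplet and cell surface, Plin1 (Plin on the array), the droplet coat protein, was lower at -1.22 (SE 0.04), Cav1, the caveolin, at -1.05 (SE 0.03) and Cavin1 (Ptrf on the array), which shapes caveolae with it, at -1.52 (SE 0.05). Pnpla3, a droplet protein induced by feeding, read 7.38, 7.43 and 7.63 in G609G, 10.43, 10.38 and 10.52 in LCS and 9.27 in WT (-2.46, SE 0.05). Over the 17 tested droplet genes, 5 were higher and 7 lower, with a median of -0.06 (as deposited 3 and 14). Beside these counts, 36.9% of all genes went each way, and 9.41% were higher and 70.5% lower as deposited.

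Fatty acid synthesis genes split by enzyme. Of 19 tested, 13 were lower and 6 higher, with a median of -0.37, beside 36.9% of all genes each way. As deposited 16 were lower and 2 higher (median -0.87), beside 70.5% and 9.41%. Fasn, the fatty acid synthase, read 10.29, 10.23 and 10.36 in G609G, 12.38, 12.33 and 12.35 in LCS and 12.36 in WT (log2 fold -1.56, SE 0.03, adjusted p = 5.68e-13). Acaca, the cytosolic acetyl-CoA carboxylase, was lower at -1.48 (SE 0.06), while its mitochondrial counterpart Acacb was higher by 1.38 (SE 0.03). Elovl6, a fatty acid elongase, was lower at -0.80 (SE 0.05). Scd3, a stearoyl-CoA desaturase with close paralogs that could share its signal, was higher by 2.63 (SE 0.07).

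In triglyceride assembly, 9 of 17 genes were lower and 6 higher, with a median of -0.21, beside 36.9% of all genes each way. As deposited 12 were lower and 4 higher, where 70.5% and 9.41% of all genes were. The enzymes of the last step differed: Dgat2 read 8.18, 8.48 and 8.68 in G609G and 11.85, 11.80 and 11.82 in LCS (-2.88, SE 0.08), while Dgat1, an unrelated enzyme of the same reaction, was higher by 0.81 (SE 0.03). Gpd1 and Pck1, which supply the glycerol backbone, were lower at -1.20 (SE 0.04) and -0.78 (SE 0.03). Lpin1, a phosphatidate phosphatase, was higher by 1.43 (SE 0.04). Of 16 genes of fatty acid uptake and binding, 7 were higher and 9 lower (as deposited 2 and 12). Fabp5 was lower at -1.87 (SE 0.05), and Fabp3, the form of heart and skeletal muscle, was higher by 2.97 (SE 0.10).

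Cholesterol synthesis had 13 of 19 genes lower and 3 higher, with a median of -0.39, beside 36.9% of all genes each way. As deposited 16 were lower and 3 higher (median -0.89), beside 70.5% and 9.41%. Nsdhl, a sterol dehydrogenase, was lower at -1.43 (SE 0.05). Against this direction, Pmvk, a kinase of the mevalonate pathway, was higher by 2.20 (SE 0.07) and Cyp51, the lanosterol demethylase, by 1.41 (SE 0.05).

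Insulin signalling and glucose uptake genes were mixed, with 9 of 18 higher and 5 lower (as deposited 3 and 12). With no filter on the mean 7 were higher and 9 lower. Slc2a1, the basal glucose transporter, was higher by 1.25 (SE 0.05), and Grb14, an adaptor that inhibits the insulin receptor, was lower at -1.67 (SE 0.09). Slc2a4, the insulin-responsive transporter of fat and muscle, was higher by 0.67 (SE 0.05), and by 0.17 as deposited. Of 15 glycolytic genes, 9 were higher and 4 lower, and 9 and 6 as deposited. The muscle enolase Eno3 read 12.43, 12.48 and 12.54 in G609G and 8.12, 8.12 and 8.08 in LCS (4.88, SE 0.04), and Pfkm, the muscle phosphofructokinase, was higher by 3.37 (SE 0.05). Pfkl, the liver form, was lower at -1.46 (SE 0.05). The branched-chain amino acid catabolism list had 11 of 19 higher and 6 lower (as deposited 6 and 12). Beside the counts of these lists, 36.9% of all genes went each way, and 9.41% were higher and 70.5% lower as deposited.

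Respiratory chain genes were higher relative to the median gene by a small margin. Of 65 tested, 55 were higher and 1 lower (Ndufa2, named after its value was seen), against 36.9% of all genes in each direction, and the median was 0.40. With no filter on the mean 45 were higher and 7 lower. As deposited 14 were higher and 26 lower, with a median of -0.10, beside 9.41% and 70.5% of all genes. By complex, medians ran from 0.35 in complex II to 0.63 in complex IV. Uqcrc2, a core subunit of complex III, was higher by 0.61 (SE 0.03). Among complex IV subunits found in muscle, Cox6a2 had a mean of 11.92 ± 0.08 in G609G and 6.55 ± 0.16 in LCS (5.87, SE 0.12), and Cox8b was higher by 2.66 (SE 0.04). Of 20 genes of the tricarboxylic acid cycle and its regulators, 14 were higher and 2 lower (as deposited 4 and 10).

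Ppargc1a, the coactivator of mitochondrial biogenesis, read 8.70, 8.74 and 8.91 in G609G, 7.10, 6.82 and 6.66 in LCS and 7.67 ± 0.01 in WT (log2 fold 2.42, SE 0.09). LCS was the lowest group and G609G the highest, with no overlap. Sirt1, a deacetylase that acts on it, was higher by 0.89 (SE 0.07) and Prkaa2, a catalytic subunit of AMP-activated kinase, by 1.81 (SE 0.10). Tfam, which packages mitochondrial DNA, was at the threshold (0.27, adjusted p = 0.0438), with -0.23 as deposited (adjusted p = 0.112). Its call was lost without any of 7 single arrays, all but G609G replicate 1 and WT replicate 3, with adjusted p from 0.0532 to 0.145. Over the 22 genes of that list, 12 were higher and 4 lower (as deposited 4 and 12). In fatty acid oxidation, 10 of 19 rose and 7 fell (as deposited 2 and 13). With no filter on the mean 6 rose and 9 fell, so the majority turned with the filter. Beside the filtered counts, 36.9% of all genes went each way, and 9.41% were higher and 70.5% lower as deposited. Cpt1a, the gate of fatty acid entry, was lower at -1.33 (SE 0.04) and Decr1 at -1.07 (SE 0.05), while Hadhb was higher by 0.64 (SE 0.03).

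Of 24 measured thermogenic genes, 15 passed the filter, with 9 higher and 4 lower (as deposited 5 and 6). Over all genes 36.9% went each way, and 9.41% were higher and 70.5% lower as deposited. Cidea, a droplet protein of brown fat, read 6.17, 6.02 and 6.45 in G609G and 5.39, 5.43 and 5.32 in LCS (1.33, SE 0.12), and Kcnk3, a potassium channel, was higher by 1.27 (SE 0.09). Gatm, an enzyme of creatine synthesis, was lower at -1.46 (SE 0.12), with means of 6.26 in G609G, 8.21 in LCS and 8.40 in WT. Ucp1, the uncoupling protein that defines brown fat, did not pass the filter. It read 4.58, 4.47 and 4.48 in G609G, 4.25, 4.55 and 4.27 in LCS and 6.24, 5.77 and 6.29 in WT. The mutants' values overlapped, and every mutant array lay under WT.

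Stress genes of the p53 programme included large rises. Of 29 tested, 18 were higher and 6 lower, with a median of 0.39, beside 36.9% of all genes each way. As deposited 8 were higher and 14 lower (median -0.11), beside 9.41% and 70.5%. Cdkn1a, the cell cycle inhibitor p21, read 11.52, 11.47 and 11.67 in G609G, 10.11, 10.03 and 10.12 in LCS and 8.93 ± 0.02 in WT (log2 fold 1.97, SE 0.04, adjusted p = 2.28e-12). Both mutants lay above WT. Gadd45g and Ddit4, which are induced by stress, had the same order of groups, at log2 folds of 3.53 (SE 0.06) and 2.18 (SE 0.05). Trp53inp1, a p53-induced nuclear protein, read 12.46, 12.44 and 12.49 in G609G, 9.05, 8.80 and 9.04 in LCS and 9.54 in WT (4.00, SE 0.07), and Sesn1, a sestrin, was higher by 2.83 (SE 0.04). For Trp53inp1 and Sesn1 the LCS mean was not above WT.

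Targets of glucocorticoids and fasting were mostly higher under both scalings. Of 19 tested, 15 were higher and 3 lower, with a median of 0.71, beside 36.9% of all genes each way. As deposited 13 were higher and 6 lower (median 0.22), beside 9.41% and 70.5%. Errfi1, a feedback inhibitor of the EGF receptor, read 13.17, 13.07 and 13.10 in G609G, 11.15, 11.12 and 11.13 in LCS and 10.69 in WT (2.48, SE 0.05). Pdk4, which shuts pyruvate out of oxidation in fasting, was higher by 1.44 (SE 0.03), Mt1, a metallothionein, by 1.29 (SE 0.03) and Tsc22d3, the glucocorticoid-induced leucine zipper, by 1.26 (SE 0.04). The LCS mean was above WT for each of these 4. Lcn2, an acute phase lipocalin, went the other way (-1.51, SE 0.04).

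Of 17 clock genes, 13 were higher and 4 lower, with a median of 0.65, beside 36.9% of all genes each way. As deposited 8 were higher and 6 lower (median 0.16), beside 9.41% and 70.5%. The activators Npas2 and Arntl were higher by 2.47 (SE 0.05) and 1.67 (SE 0.06), and so were the repressors Per1 and Cry2, by 1.39 (SE 0.04) and 1.54 (SE 0.05). Nfil3, a repressor at the output of the clock, read 9.02, 9.12 and 9.63 in G609G, 6.65, 6.45 and 6.18 in LCS and 6.24 in WT (3.33, SE 0.15). The hour at which tissues were taken is not in the labels used here.

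Immediate early genes were divided. Nr4a3, a nuclear receptor induced quickly by many stimuli, had means of 10.95 ± 0.04 in G609G and 6.71 ± 0.07 in LCS (4.74, SE 0.06), and its relative Nr4a1 was higher by 1.21 (SE 0.06). Egr2, a zinc finger factor, read 6.58, 6.23 and 6.71 in G609G and 10.18, 10.17 and 10.29 in LCS (-3.21, SE 0.09). Of 21 tested, 11 were higher and 1 lower, the latter being Egr2, while 7 to 15 were higher and 1 to 5 lower under the alternatives that did not use the deposited scale. As deposited 6 were higher and 11 lower. Over all genes 36.9% went each way, and 9.41% were higher and 70.5% lower as deposited.

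Inflammatory mediators gave no common direction, with 7 of 17 higher and 3 lower (as deposited 2 and 11). Ptgs2, the inducible cyclooxygenase, read 10.76, 10.84 and 10.83 in G609G, 7.15, 7.07 and 7.02 in LCS and 8.82 in WT (4.23, SE 0.04). Nfkbia, the inhibitor that NF-kB induces, was higher by 1.56 (SE 0.03). Ccl2, a monocyte chemokine, and Saa3, an acute phase protein, were lower at -0.99 (SE 0.13) and -1.37 (SE 0.13). In the endoplasmic reticulum stress list, 8 of 23 were higher and 12 lower, beside 36.9% of all genes each way. As deposited 6 were higher and 17 lower, beside 9.41% and 70.5%. The transcription factor Atf4 and its target Chac1 were higher by 1.24 (SE 0.04) and 1.51 (SE 0.04), while the chaperone genes Pdia4 and Sdf2l1 were lower at -1.03 (SE 0.04) and -1.46 (SE 0.07).

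Macrophage genes were lower in G609G. Of 28 tested, 24 were lower and 0 higher by limma relative to the median gene, with a median of -1.06, beside 36.9% of all genes in each direction. As deposited 28 were lower, as were 70.5% of all genes. Under the alternatives that keep the relative scale or rescale the arrays, 0 or 1 gene of the list was called higher. The 4 that did not pass were Cd14, Cx3cr1, Trem2 and Aif1, named after their values were seen. Csf1r, the receptor on which macrophages depend, read 8.17, 8.07 and 8.32 in G609G, 10.01, 9.94 and 10.01 in LCS and 9.72 in WT (-1.30, SE 0.05, adjusted p = 1.7e-10). Cd68 and Lyz2, of the lysosome, were lower at -1.25 (SE 0.05) and -1.08 (SE 0.04). Atp6v0d2, a proton pump subunit of macrophages and osteoclasts, read 5.43, 5.10 and 5.82 in G609G and 9.26, 9.16 and 9.18 in LCS (-3.25, SE 0.12). The measured macrophage genes averaged 7.03 to 7.17 in G609G, 8.43 to 8.50 in LCS and 8.12 ± 0.05 in WT.

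Among lymphocyte genes, 11 of 22 measured passed the filter, and 5 were higher and 4 lower (as deposited 0 and 8). Over all genes 36.9% went each way, and 9.41% were higher and 70.5% lower as deposited. Klrb1c, the NK1.1 receptor of natural killer cells, read 4.44, 4.84 and 5.15 in G609G, 9.58, 9.23 and 9.73 in LCS and 7.80 ± 0.13 in WT (-4.20, SE 0.15), with G609G near background. Thy1, of T cells and stromal cells, was lower at -1.58 (SE 0.07). Cd5, a surface receptor of T cells, and Prf1, the perforin of cytotoxic cells, were higher by 0.47 (SE 0.10) and 0.43 (SE 0.10). Their levels lay near background in every group, and their deposited folds of -0.03 and -0.06 did not pass (adjusted p of 0.798 and 0.549).

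Matrix genes were mostly lower in G609G. Of 20 collagen genes, 16 were lower and 2 higher, with a median of -1.03, beside 36.9% of all genes each way. As deposited 18 were lower and 0 higher, where 70.5% of all genes were lower. The 2 higher were Col4a3 and Col4a4, named after their values were seen. Col1a1 and Col3a1, of the main fibrillar collagens, were lower at -1.26 (SE 0.04) and -1.73 (SE 0.07). Col6a1, of the web around fat cells, read 7.25, 7.29 and 7.34 in G609G, 9.76, 9.78 and 9.74 in LCS and 8.84 in WT (-1.97, SE 0.04). Col15a1, of the basement membrane zone, was lower at -3.25 (SE 0.14). On the relative scale WT lay between the mutants for 14 of the 16 lower collagens (87.5%), which were called at any fold. The share was 50.1% among all genes tested and 85.4% among genes at least 4-fold lower, a stricter set. It was not taken for all genes called lower.

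Of 30 other matrix genes, 23 were lower and 6 higher, with a median of -0.80, beside 36.9% of all genes each way. As deposited 25 were lower and 1 higher, beside 70.5% and 9.41%. Fbn1, the fibrillin of elastic fibres and precursor of asprosin, read 7.92, 7.96 and 8.09 in G609G and 11.01, 10.94 and 10.98 in LCS (-2.49, SE 0.04). Thbs1, thrombospondin, was lower at -2.44 (SE 0.04), Fn1, fibronectin, at -1.53 (SE 0.03), and Sparc, a collagen-binding glycoprotein, at -1.49 (SE 0.03). Of 19 matrix proteases and inhibitors, 14 were lower and 5 higher (as deposited 15 and 1). The aggrecanase Adamts5 was lower at -2.04 (SE 0.05).

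Markers of adipocyte progenitors and fibroblasts followed the same direction, with 22 of 24 lower and 1 higher (Fst, named after its value was seen) and a median of -0.67. As deposited 23 were lower and 0 higher. Over all genes 36.9% went each way, and 70.5% were lower and 9.41% higher as deposited. Cd248, a surface marker of stromal cells, read 6.13, 6.03 and 5.58 in G609G and 9.13, 9.11 and 9.07 in LCS (-2.69, SE 0.12). Dpt, dermatopontin, was lower at -1.54 (SE 0.04) and Sfrp4, a Wnt antagonist, at -2.66 (SE 0.07). The measured list genes averaged 7.67 to 7.76 in G609G and 9.13 to 9.23 in LCS.

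Mesothelium, the outer lining of the depot, had 7 of 12 genes lower and 3 higher, beside 36.9% of all genes each way. Msln was at -1.39 (SE 0.08) and Upk3b at -0.74 (SE 0.04). With no filter on the mean 9 were lower and 0 higher. As deposited 12 were lower, where 70.5% of all genes were. Endothelial genes had no common direction, at 8 of 21 higher and 9 lower with a median of 0.02 (as deposited 3 and 14). Pecam1, an adhesion molecule of vessels, was higher by 0.62 (SE 0.04), though by only 0.125 as deposited. Emcn, endomucin, was higher by 0.97 (SE 0.03), while Lyve1 of the same list was lower at -0.42 (SE 0.03). Of 16 genes of smooth muscle and pericytes, 10 rose and 4 fell (as deposited 7 and 7). Des, desmin, which skeletal muscle also expresses, was higher by 3.16 (SE 0.06), Cnn1, calponin, by 2.20 (SE 0.06) and Myh11, the smooth muscle myosin, by 1.83 (SE 0.04), while Mcam was lower at -1.61 (SE 0.04).

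In the growth hormone and IGF axis, Ghr, the growth hormone receptor, was lower at -1.14 (SE 0.04) and Igfals, which stabilises circulating IGF, at -3.16 (SE 0.15). Igfbp3, a binding protein of IGF, read 10.63, 10.67 and 10.89 in G609G, 8.69, 8.63 and 8.69 in LCS and 7.95 ± 0.07 in WT (2.56, SE 0.05). Both mutants lay above WT. Of 15 tested, 8 were lower and 3 higher (as deposited 14 and 1). Of 22 Wnt and BMP genes, 12 were lower and 4 higher (as deposited 19 and 0), among them Bmp7 at -1.98 (SE 0.09). Of 14 proliferation genes, 7 were lower and 2 higher (as deposited 13 and 0). Beside the counts of these lists, 36.9% of all genes went each way, and 70.5% were lower and 9.41% higher as deposited. Ccna2, cyclin A, read 4.75, 4.73 and 4.66 in G609G, near background, and 6.55, 6.43 and 6.43 in LCS.

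Genes of protein synthesis and turnover moved by small amounts. Each list count here stands beside 36.9% of all genes each way, and 9.41% higher and 70.5% lower as deposited. The 26 tested cytosolic ribosomal genes were all higher relative to the median gene (24 with no filter on the mean), with folds from 0.21 to 0.85 and a median of 0.52, while as deposited 10 were higher and 4 lower around a median of 0.02. Of 30 proteasome genes, 25 were higher and 4 lower, with Psma6 at 1.03 (SE 0.06), but as deposited 2 were higher and 16 lower. Of 27 splicing factor genes, 19 were higher and 1 lower (Srsf9, named after its value was seen), with no filter on the mean 13 and 7, and as deposited 7 and 14. Srsf7 (Sfrs7 on the array) was higher by 0.82 (SE 0.04) and the kinase Clk1 by 0.94 (SE 0.04). Srsf1 (Sfrs1 on the array), known to act on progerin splicing, did not pass relative to the median gene (0.00, SE 0.06, adjusted p = 0.969) and was lower as deposited (-0.50, adjusted p = 7.33e-05). Of 27 autophagy and lysosome genes, 16 were lower and 9 higher (as deposited 21 and 6), with Ctsd, a cathepsin, at -0.96 (SE 0.02) and Npc1, a cholesterol exporter of the lysosome, at 1.24 (SE 0.04).

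Single probe sets that broke with the rest of their gene were common, at 28739 of 158136 (18.2%), in 9475 of 13882 genes. Some of those with the lowest diffSplice p sat in genes that moved as a whole. Probe set 5234597 of Ryr1 was at 8.69 ± 0.18 in G609G and 8.76 ± 0.21 in LCS while the gene's log2 fold was 5.74. Probe set 4824172 of Adam28, an epididymal metalloprotease, was at 12.2 ± 0.09 and 11.5 ± 0.02 while the log2 fold of its gene was -5.94. Probe set 5379151 of Mybpc2, a fast muscle myosin-binding protein, was at 4.93 ± 0.92 and 5.55 ± 0.24, near background in both. Others moved against their gene (Itpr2) or further than it did (Abcc9 and Dst). In Itpr2, a calcium release channel, probe set 4773041 was at 9.68 ± 0.19 in G609G and 6.57 ± 0.23 in LCS while the gene's log2 fold was -0.49. In Abcc9, a subunit of potassium channels, 4897360 was at 9.55 ± 0.26 and 5.24 ± 0.26 while the gene's log2 fold was 0.78. In Dst, a cytoskeletal linker, 5009506 was at 5.05 ± 0.53 and 9.01 ± 0.03 while the gene's log2 fold was -0.90 (SD, n = 3 in each case). Adjusted p ranged from 2.83e-77 to 1.1e-53 for these.

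**Figure D5:**
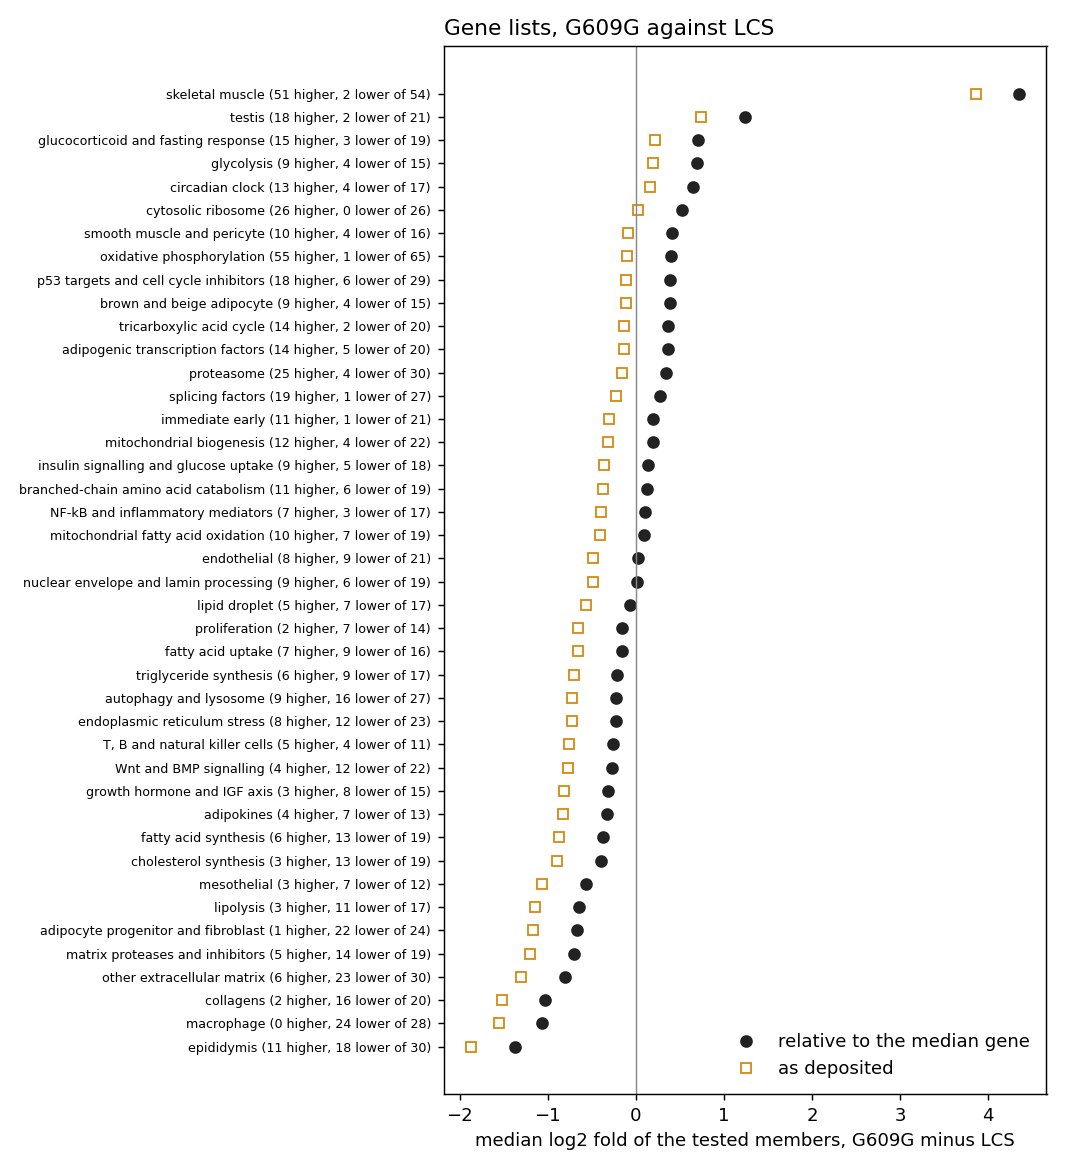
Median log2 fold of G609G minus LCS (x axis) over the tested genes of each list with at least 10 tested (rows, with the counts called relative to the median gene). Filled circles are relative to the median gene and open squares as deposited. Muscle genes lie far to the right at 4.35, with those that passed the filter through G609G alone included, macrophage and collagen genes to the left at -1.06 and -1.03, and lists such as the respiratory chain turn from 0.40 to -0.10 as deposited.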

How the data were processed

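Total RNA was labelled with a whole-transcript kit and read on Affymetrix mouse exon arrays, per the labels' protocols. What the authors deposited are log2 intensities, 1 per probe set, for 229581 probe sets on 9 arrays. Their normalization and software are not given in the sources used here, and the build is mm9 per the submitters' processing notes. Of 10 samples that the series' design text mentions, 9 are used here. The number of arrays limits the precision, and p-values set each difference against the spread within groups over all 9 arrays. As no label ties an array to an animal, what that spread stands for is not known.

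Probe sets with exactly 1 gene symbol in the platform annotation (208397, while 3965 had several and 17219 none) were reduced to gene values by median polish of at most 10 rounds. Of 16299 symbols, 14132 were current, 2124 were a synonym of 1 RefSeq gene, 37 of several, and 6 had no match. A gene was tested if it had 3 or more probe sets and its mean exceeded the 25th percentile of such genes (5.09), which 11341 did and 4958 did not. For values relative to the median gene, the median departure of an array from the gene means was subtracted. G609G minus LCS was tested with limma (lmFit, eBayes with a trend) on all 9 arrays, two-sided, with Benjamini-Hochberg adjustment at 0.05. Probe sets above the 25th percentile (5.01) were compared with the rest of their gene by diffSplice. The scaling with the limma test, and diffSplice, were checked on simulated data. Far fewer genes were changed there than were called here, so the scaling was not checked under changes this wide. The median polish, the filter, the lists and the promoter search were not simulated. At most 1.89% of values were identical between any pair of arrays, so none was taken as a duplicate.

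The members and the 45 gene lists (1133 symbols, 903 tested) were chosen with earlier results of these data known. Named genes come from a rule: the 12 largest rises and 12 largest falls called under both scalings without overlap, the same outside the muscle, epididymis and testis lists, up to 6 members per list by lowest p, a set around Lmna and fat cells, and 6 probe sets by lowest diffSplice p. Not all are printed. Defb20, Defb22, Lcn5 and Wfdc16 lie outside the rule and were chosen after their values were seen, as were the genes so marked. Alternatives covered scaling, summary, filters, variance model, the arrays fitted, a replicate block, the methods' t-test and the omission of single arrays. Promoter letters and gene order come from RefSeq (GRCm38.p6). Software was R 4.3.3 with limma 3.58.1 and the data.table package, version 1.17.8, and Python 3.11.15 with matplotlib 3.10.9.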

Additional observations from a re-analysis of the deposited data

How the results depend on the processing

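The scaling of the arrays mattered most. As deposited, 1067 genes were higher and 7994 lower, against 4186 and 4181 relative to the median gene; the share of calls that were higher was 11.8% and 50%. Centring each array on its own median made it 61.7% (5315 and 3305 genes) and quantile normalization 52.4%. A fold of at least 1.5 beside the adjusted p left 1394 and 1957. The methods' t-test on the deposited values gave 494 higher and 4879 lower at their p and fold, and 492 and 4851 after Benjamini-Hochberg adjustment. The signs of Pnpla2 (-0.22), Lcn5 (-0.38), Cd5 (-0.03), Prf1 (-0.06) and Tfam (-0.23) turned as deposited and in that test, and that of Srsf1 (Sfrs1, -0.50) as deposited. Without a filter on the mean, Lcn5 was -0.06 and Srsf1 (Sfrs1) -0.17. Lmna was 0.31 with a plain mean of the probe sets. The cause of these changes beyond the scaling itself was not tested. Called Lmna probe sets numbered 7 with the stricter filter against 11, where fewer were tested. Leaving out 1 array gave 3841 to 4294 genes higher, 3925 to 4355 lower and 8 to 11 Lmna probe sets. Same-numbered G609G and LCS arrays did not deviate together (r = -0.120, 0.121 and 0.107), so the numbers were not taken as pairs. With the replicate number as a block, 4249 genes were higher and 4225 lower over 9 arrays, and 3982 and 4130 over the 6. Over all settings and the 162 genes with values, 3624 results kept their side of the threshold, 62 lost the call and 7 gained it. Another 19 changed sign, all given above. A change of sign was counted only where the main fit or the alternative called the gene. Genes whose lower group lies near background have folds that the arrays limit.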
